A study of Canis lupus familiaris with 23 samples.

Results

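The interfollicular epidermis (IFE), the stratified epithelium between the hair follicles, was compared with whole skin of the dog, taken as tissue and not cultured. The comparison comprised 4 of the 23 libraries of the series, chosen by their labels: 2 labelled interfollicular epidermis and 2 labelled whole skin. The series measured RNA by CEL-seq2, in which samples are barcoded and pooled and reads come from the 3′ end of each transcript, in 6 tissue libraries and 17 libraries of epidermal organoids, which are keratinocyte cultures grown in 3 dimensions. The labels number the replicates and name no animal, age, breed, sex or body site for them, so the spread between replicates may be technical. The p-values rest on a spread estimated over all 23 libraries, organoids included, and not on the 4 compared libraries alone. The extract protocol, worded alike for all libraries, tissue included, has sorted cells put into Trizol, and the labels do not say how the tissues were dissociated or which cells were sorted. The 2 libraries of hair follicle tissue, described by the labels as anagen and telogen follicles mixed, are given beside the comparison as values.

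Whole skin holds the epidermis together with the dermis, the follicles with their hair shafts, sebaceous and sweat glands, the arrector pili muscle, vessels and fat. In the epidermis, basal keratinocytes that make keratins 5 and 14 divide on a basement membrane, and their daughters move outward, switch to keratins 1 and 10 and build the cornified envelope and the lipid barrier. Hair shafts are built from hair keratins and keratin-associated proteins, which interfollicular keratinocytes are not known for making. Since these were bulk samples, fewer cells of a type and less RNA per cell cannot be told apart.

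The IFE libraries were shallow, with 335949 and 86301 counts, against 1378031 and 461780 counts in whole skin. Raw counts given below for single genes are not scaled for this difference in depth. After TMM scaling (trimmed mean of M values), 1 count was worth 2.43 and 7.79 CPM (counts relative to the scaled library size) in IFE replicates 1 and 2, and 0.646 and 2.01 CPM in whole skin replicates 1 and 2. A gene with 0 counts could therefore stand at up to 23.4 CPM in IFE replicate 2 (3 counts of the scaled library), against 1.94 CPM in whole skin replicate 1; floors and intervals here cover counting error only. The log2 CPM of tested genes correlated less between the IFE replicates (Pearson's r = 0.745 across genes, which are not independent) than between the whole skin replicates (0.926). Mitochondrially encoded genes took 13.1 and 10.3% of the counts in IFE and 13.1 and 12.3% in whole skin.

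Against their markers, the labels held in part. In IFE the basal keratins KRT5 and KRT14 and the suprabasal keratin KRT10 were abundant, and the envelope genes LOR and FLG were detected in both libraries. KRT1, the partner of KRT10, was low, at 12.2 and 62.3 CPM in IFE and 5.16 and 4.02 CPM in whole skin (log2 change 2.63, edgeR adjusted p = 0.30; 13 and 10 counts), and KRT2, a keratin of the upper epidermis, had 0 and 1 count and was not tested. Markers of hair, fat, vessels, melanocytes, fibroblast matrix and smooth muscle were detected in IFE as well, at the levels given below. Among them DCN stood at 1622 and 662 CPM, COL1A1 at 369.6 and 70.1 CPM and MYH11 at 163 and 125 CPM in IFE. CD207, the marker of Langerhans cells, was looked for by name and not found among the entries, so it was not analysed. In whole skin, hair, matrix, muscle, fat and sebaceous genes were all detected. DES, which encodes the muscle filament desmin, had 0 counts in all 4 libraries.

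Of 9888 tested genes, 16 were called higher in IFE than in whole skin (0.162%) and 138 lower (1.4%), 154 in all (1.56%), at an adjusted p under 0.05 (edgeR's quasi-likelihood test with Benjamini-Hochberg adjustment over all tested genes). At an unadjusted p under 0.05, 354 genes were higher (3.58%) and 950 lower (9.61%), the shares against which such counts for gene lists are to be read. Limma-voom called 23 higher (0.233%) and 144 lower (1.46%), and DESeq2 called 56 higher (0.566%) and 148 lower (1.5%). With library totals in place of TMM factors, 35 were called higher and 107 lower. The median log2 change of all tested genes was -0.20 with TMM and 0.03 with library totals, so a change of that size is within the uncertainty of the scaling. Both IFE libraries stood below both whole skin libraries in all 138 genes called lower and above them in all 16 called higher, against 32% and 14.4% of all tested genes. Which genes were called higher changed with each library left out, as given below. Only edgeR was run on the sets with 1 library left out. The number of lower calls was 103 without IFE replicate 1, 62 without IFE replicate 2, 84 without whole skin replicate 1 and 64 without whole skin replicate 2.

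**Figure D1:**
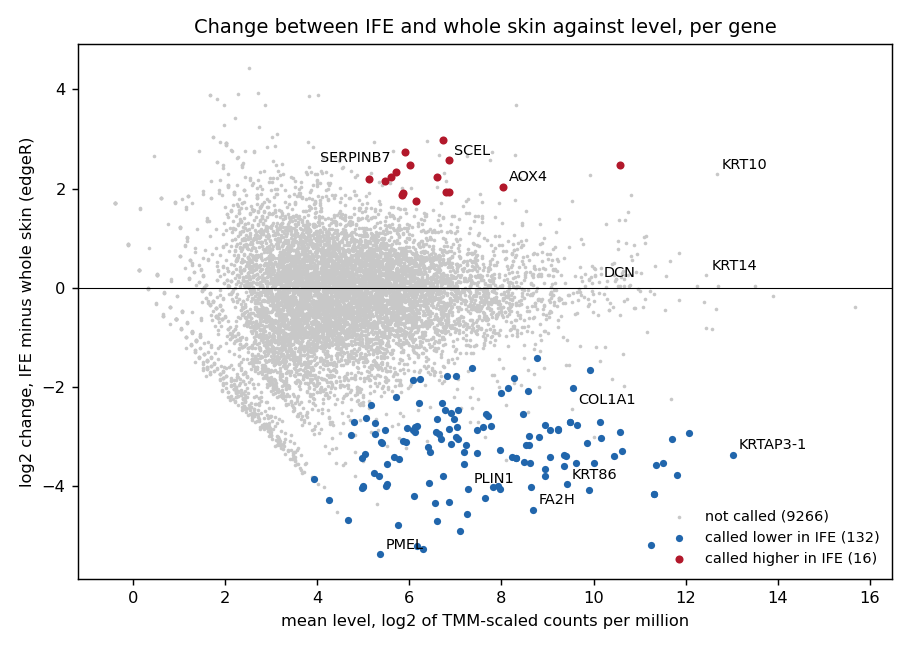
Each point is a gene, with its mean TMM-scaled level in the 4 libraries (log2 CPM, x axis) and its log2 change from whole skin to IFE (y axis). Blue points, 132 genes called lower with at least 1 count in IFE, lie well below 0, as PLIN1 at -4.05, and red points, 16 genes called higher, lie above 0, as SCEL at 2.58; 474 genes with 0 counts in a group are not plotted.

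Among the genes called higher were SCEL and SERPINB7, known from the differentiating epidermis. SCEL encodes sciellin, a precursor of the cornified envelope. It stood at 241 and 156 CPM in IFE replicates 1 and 2 and at 30.99 and 38.2 CPM in whole skin. The log2 change was 2.58 ± 0.53 (SE, n = 2 per group; edgeR adjusted p = 0.011), a 5.97-fold higher level. Both IFE libraries were far above both whole skin libraries. In follicle tissue SCEL stood at 22.5 and 27.9 CPM, a log2 change from whole skin of -0.41 ± 0.53 (SE), within its error.

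SERPINB7, a serine protease inhibitor of the epidermis whose loss causes a palmoplantar keratosis, was measured at 119 and 101 CPM in IFE and at 20.01 and 20.1 CPM in whole skin. Its log2 change was 2.47 ± 0.60 (SE; edgeR adjusted p = 0.043). The groups did not overlap and the replicates of each group lay close together. EXPH5, an effector of vesicle transport whose loss causes skin fragility, stood at 158 and 195 CPM in IFE against 48.4 and 42.2 CPM in whole skin (log2 change 1.92 ± 0.40, SE; edgeR adjusted p = 0.013). CXADR, a junctional receptor used by coxsackieviruses and adenoviruses, was at 112 and 70.1 CPM in IFE and 32.9 and 16.1 CPM in whole skin. For both genes the lower IFE library lay more than 2 times above the higher whole skin library.

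Several of the other rises encode enzymes. AOX4, an aldehyde oxidase, was measured at 457 and 389 CPM in IFE and at 111 and 94.4 CPM in whole skin, with a log2 change of 2.04 ± 0.38 (SE; edgeR adjusted p = 0.0074). PTGS1, the constitutive cyclooxygenase, stood at 94.8 and 125 CPM against 34.9 and 28.1 CPM. GALNT1, which starts mucin-type O-glycosylation, was at 178 and 195 CPM against 55.5 and 40.2 CPM. In these 3 genes the groups stood well apart and the replicates of each group lay close together. PIK3CB, a catalytic subunit of phosphoinositide 3-kinase, NADK2, the mitochondrial NAD kinase, and UBASH3B, a tyrosine phosphatase, rose by log2 changes of 1.91, 2.15 and 2.20.

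IKZF2, the zinc-finger transcription factor Helios known from T cells, had 124 and 85.7 CPM in IFE and 18.7 and 12.1 CPM in whole skin (log2 change 2.73 ± 0.57, SE; edgeR adjusted p = 0.013). Other markers of lymphocytes and mast cells were at or near 0 in IFE and had few counts in whole skin too. Of the 27 genes on that list, 5 were tested, 4 with a positive log2 change, and IKZF2 was the single one called. PTPRC, the phosphatase CD45 of all leukocytes, had 7 counts in IFE and 15 in whole skin. CD3E, KIT and CPA3 had 0 counts in IFE, and 4 and 1, 10 and 3, and 6 and 0 in whole skin. CD3G and CD8A had 0 counts in both tissues, and CD3D and CD2 had 1 count each in both. The list held 0.0199 and 0.0232% of counts in IFE and 0.00755 and 0.00476% in whole skin. IKZF2 gave 51 and 11 of its 67 and 20 counts in IFE. The other members were too shallow in IFE to compare. FAM83B, MOSPD2 and SPAG1 completed the named rises, with log2 changes of 2.33, 2.24 and 2.24.

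The remaining rises carried provisional locus names. LOC102151692 stood at 265 and 109 CPM in IFE, 26.5 and 22.1 CPM in whole skin, and 0 and 1.90 CPM in follicle tissue (log2 change 2.99 ± 0.66, SE; edgeR adjusted p = 0.020). In the RefSeq gene order of the dog assembly UU_Cfam_GSD_1.0 it neighbours SLPI, PI3 and WFDC5, which encode small secreted protease inhibitors. LOC483211 was the most abundant of the rises in IFE, at 3645 and 1542 CPM against 488 and 442 CPM, and was not found in that gene table. Both loci were higher in both IFE libraries than in either whole skin library.

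**Figure D2:**
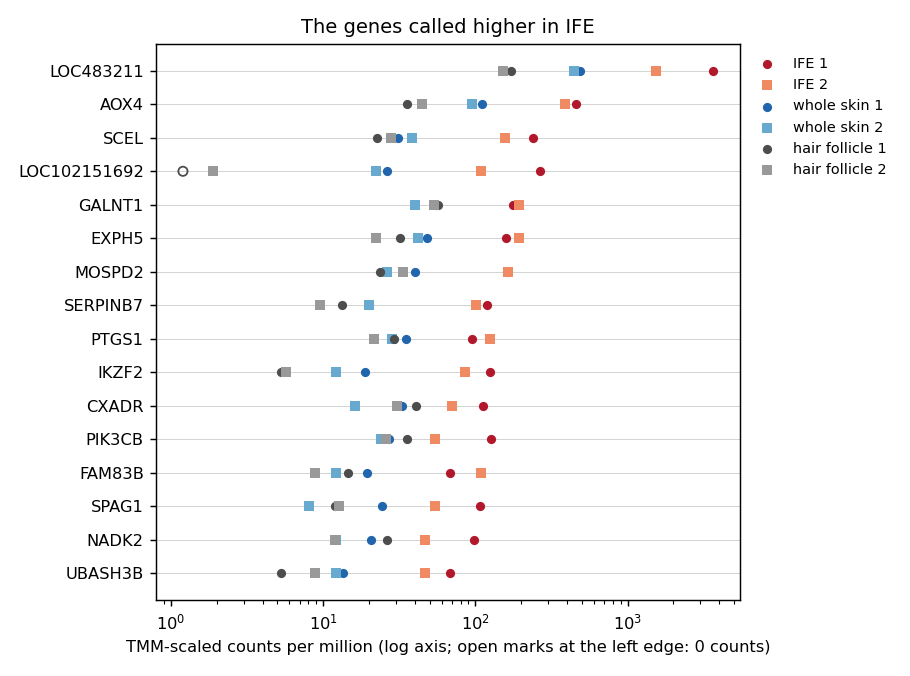
Level of the 16 genes called higher in each tissue library (TMM-scaled CPM, log axis), with IFE in red and orange, whole skin in blue and hair follicle tissue in grey. For every gene both IFE marks lie to the right of the 4 others, as for SCEL at 241 and 156 CPM against 30.99 and 38.2 CPM in whole skin; open marks stand for 0 counts.

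Leaving out whole skin replicate 2 ended the call of all 16 rises, and leaving out whole skin replicate 1 ended it for all but MOSPD2 and CXADR. Without IFE replicate 1, 3 of the 16 were still called, and without IFE replicate 2, 9 were. Over the 4 sets with 1 library left out, the log2 change of SCEL ran from 2.21 to 2.82, that of SERPINB7 from 2.35 to 2.57, that of AOX4 from 1.93 to 2.18 and that of IKZF2 from 2.44 to 3.15. Others moved further: SPAG1 ran from 1.60 to 3.41, PIK3CB from 1.09 to 2.29, NADK2 from 1.44 to 2.68 and CXADR from 1.44 to 2.56. All of these values were positive.

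Around SCEL, the list of 44 suprabasal and cornified envelope genes took a larger share of the counts in IFE. It held 3.12% of counts (95% exact binomial interval 3.06 to 3.18) and 4.53% (4.39 to 4.67) in IFE replicates 1 and 2, and 1.37% (1.35 to 1.39) and 1.55% (1.52 to 1.59) in whole skin. Follicle tissue stood lowest, at 1.01 and 0.996%. Of the 31 members tested, 1 was called higher (SCEL) and 1 lower, and the median log2 change was 0.47. The calls varied with the setting. A fit of the 6 tissue libraries called 8 higher and 2 lower, and a fit of the 4 libraries called 5 higher and 0 lower. With no filter 5 were called higher and 1 lower, DESeq2 called 3 higher and 1 lower, and limma-voom called 1 higher and 0 lower. In 14 members both IFE libraries stood above both whole skin libraries and in 6 below, against 14.4% and 32% of all tested genes. The log2 change was positive in 19 members and negative in 11, so not every member shared the higher summed counts in IFE.

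KRT10, the main keratin of the spinous layer, was among the members that separated the tissues. It stood at 8370.5 and 13281 CPM in IFE, 2163 and 2271 CPM in whole skin and 548 and 789 CPM in follicle tissue. The groups did not overlap, yet the log2 change of 2.29 ± 0.66 missed the threshold (SE; edgeR adjusted p = 0.098), and DESeq2 called it. SPINK5, the inhibitor of the kallikreins that shed the stratum corneum, had 3159 and 2500 CPM in IFE and 746 and 804 CPM in whole skin (log2 change 1.87, edgeR adjusted p = 0.39). CALML5, a calmodulin-like protein of differentiating keratinocytes, had 2405 and 2687 CPM against 835 and 943 CPM (1.52, edgeR adjusted p = 0.49). LOR, which encodes the envelope protein loricrin, had 1493 and 1994 CPM against 739 and 679 CPM (1.29, edgeR adjusted p = 0.71). In these 3 genes both IFE libraries stood above both whole skin libraries, as in 14.4% of all tested genes, and none of the 3 passed the test. LOR was called in 1 of 14 alternative settings, the fit of the 6 tissue libraries.

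Other envelope genes showed no such separation or the opposite order. FLG, which encodes profilaggrin, had 1214 and 795 CPM in IFE and 755 and 1047 CPM in whole skin, so the groups overlapped (log2 change 0.17, edgeR adjusted p = 0.98). IVL, the envelope protein involucrin, stood lower in IFE at 355 and 335 CPM against 854 and 1176 CPM (log2 change -1.55, edgeR adjusted p = 0.57), and was 1352 and 1382 CPM in follicle tissue. IVL was called in 1 of 15 alternative settings, the fit of the 6 tissue libraries.

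Desmosomal cadherins of the upper layers stood near the threshold. DSC1 had 396 and 343 CPM in IFE and 62.0 and 62.3 CPM in whole skin, and its log2 change of 2.58 ± 0.68 stood just outside the threshold (SE; edgeR adjusted p = 0.060). DSG1 had 1479 and 787 CPM against 335 and 342 CPM (1.75 ± 0.48, SE; edgeR adjusted p = 0.076). Both genes were called by DESeq2, and both were also called with library totals in place of TMM factors. Over the 18 tested desmosome and junction genes edgeR called 0, with 3 higher and 2 lower at an unadjusted p under 0.05, limma-voom called 1 higher and DESeq2 called 2 higher; the median log2 change was -0.13. DSG4, the desmoglein of the hair shaft, and GJB6, a connexin, lay on the other side with 1 and 7 counts in IFE against 35 and 175 in whole skin.

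Among the 21 tested genes of the lipid barrier edgeR called 0, with 3 higher and 2 lower at an unadjusted p under 0.05, limma-voom called 0 and DESeq2 called 2 higher. The median log2 change was 0.41. ABCA12, which loads lipid into lamellar granules, had 357 and 117 CPM in IFE and 72.3 and 70.3 CPM in whole skin (1.798 ± 0.53, SE; edgeR adjusted p = 0.11). CERS3, the synthase of ultra-long ceramides, had 289 and 265 CPM in IFE against 93.6 and 119 CPM. ACER1, an alkaline ceramidase, lay the other way at 117 and 85.7 CPM against 199 and 512 CPM (-1.76 ± 0.54, SE; edgeR adjusted p = 0.13). The members thus lay on both sides of 0.

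Epidermal protease inhibitors had a median log2 change of 0.76 over 16 tested genes, with 1 called higher (SERPINB7) and 0 lower. In 9 of them both IFE libraries stood above both whole skin libraries and in 5 below, against 14.4% and 32% of all tested genes. CSTA, the envelope cystatin A, had 545 and 218 CPM in IFE against 46.5 and 74.4 CPM in whole skin (log2 change 2.73, edgeR adjusted p = 0.39). SERPINB2 had 158 and 350.5 CPM against 89.7 and 90.4 CPM. CST6, cystatin M/E, had the opposite order with 778 and 405 CPM against 1265 and 2086 CPM (-1.48, edgeR adjusted p = 0.49).

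Basal layer genes overlapped between the tissues or differed by less than the test could call. KRT5 stood at 2386 and 7431 CPM in IFE and at 3833 and 5687 CPM in whole skin (log2 change 0.04 ± 0.53, SE; edgeR adjusted p = 0.99). KRT14 stood at 3755 and 8335 CPM in IFE and 4622 and 5542 CPM in whole skin (0.25 ± 0.51, SE; edgeR adjusted p = 0.88). In both genes the IFE replicates lay on opposite sides of the whole skin replicates, and the direction of the change turned when IFE replicate 2 was left out, to -0.99 for KRT5 and -0.43 for KRT14. COL17A1, the hemidesmosomal collagen XVII, had 596 and 397 CPM against 230.5 and 171 CPM (1.31 ± 0.49, SE; edgeR adjusted p = 0.23), while CDH3, P-cadherin, had 48.6 and 93.5 CPM against 139 and 155 CPM (-1.14 ± 0.50, SE; edgeR adjusted p = 0.32). Of 15 basal genes tested edgeR, limma-voom and DESeq2 each called 0, and 2 were higher and 1 lower at an unadjusted p under 0.05.

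The genes called lower were led by hair. All 28 tested members of the hair shaft list had a negative log2 change, 27 had both IFE libraries below both whole skin libraries (32% of all tested genes did) and 23 were called lower (1.4% of all tested genes were). The median log2 change was -3.38, or -3.16 with the 2 members at 0 counts in IFE set at their bound. The size depended on the IFE library: without IFE replicate 1 the median was -5.80 (-4.93 with the 7 members at 0 in IFE replicate 2 at their bound), and without IFE replicate 2 it was -2.83 (-2.63). KRT86, a type II hair keratin, had 129 and 15.6 CPM in IFE and 1078 and 1505 CPM in whole skin (log2 change -3.96 ± 0.55, SE; edgeR adjusted p = 0.0013). KRT32, a type I hair keratin of the cuticle, had 99.7 and 15.6 CPM against 730 and 1139 CPM (-3.80 ± 0.52, SE; edgeR adjusted p = 0.0013). KRTAP16-1, a keratin-associated protein, had 185 and 46.7 CPM against 1382 and 1535 CPM (-3.54 ± 0.49, SE; edgeR adjusted p = 0.0013). IFE was below whole skin in every library for these 3 genes, and whole skin stood close to follicle tissue, where KRT86 had 1359.6 and 2029 CPM.

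Regulators and enzymes of the shaft fell as well as its structural proteins. HOXC13, the homeodomain factor of hair keratin genes, had 5 counts in IFE and 205 in whole skin (log2 change -3.45 ± 0.60, SE; edgeR adjusted p = 0.0033). PADI3, which converts arginine to citrulline in trichohyalin, had 0 counts in IFE and 47 in whole skin, at least 4.32-fold lower. S100A3, a calcium-binding protein of the cuticle, and TCHH, trichohyalin itself, had log2 changes of -3.41 and -2.54 and were called lower. The members that did not pass included KRTAP7-1, with 2220 and 54.5 CPM in IFE and 7706 and 3191 CPM in whole skin (-2.24, edgeR adjusted p = 0.26), DSC2, and LEF1, a Wnt effector.

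Hair transcripts also divided the IFE replicates. The summed counts of the list made up 1.28% of IFE replicate 1 (95% exact binomial interval 1.25 to 1.32) and 0.156% of IFE replicate 2 (0.131 to 0.185), against 5.33 and 5.53% in whole skin and 7.44 and 6.95% in follicle tissue. KRTAP3-1 had 2556 CPM in IFE replicate 1 and 374 CPM in IFE replicate 2, KRT34 had 539.9 and 31.2 CPM, and KRT31 had 168 and 7.79 CPM. IFE replicate 1 thus held more of every one of these genes, and both replicates held less than whole skin. The log2 change of KRT86 was -6.34 without IFE replicate 1. Of the 23 hair shaft genes called lower, 18 were still called without IFE replicate 1 (where KRTAP7-1 was called too), 15 without IFE replicate 2, 15 without whole skin replicate 1 and 13 without whole skin replicate 2.

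Among inner root sheath genes, 5 keratins fell, and KRT26 and KRT72 had log2 changes of -2.24 and -3.64 without passing the test (edgeR adjusted p = 0.13 and 0.15). KRT74, a sheath keratin, had 12.2 and 0 CPM in IFE and 162 and 201 CPM in whole skin (log2 change -4.33 ± 0.61, SE; edgeR adjusted p = 0.0013). KRT73 and KRT25 had log2 changes of -3.32 and -3.34, and KRT27 and KRT28 were called lower too, 5 of 12 tested members in all. Without whole skin replicate 2, 3 were, and without IFE replicate 1 KRT26 was called as well, 6 in all. GATA3, a transcription factor of the sheath that the epidermis also makes, lay above 0 with 584 and 717 CPM in IFE against 310.5 and 221 CPM in whole skin (1.28, edgeR adjusted p = 0.29).

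**Figure D3:**
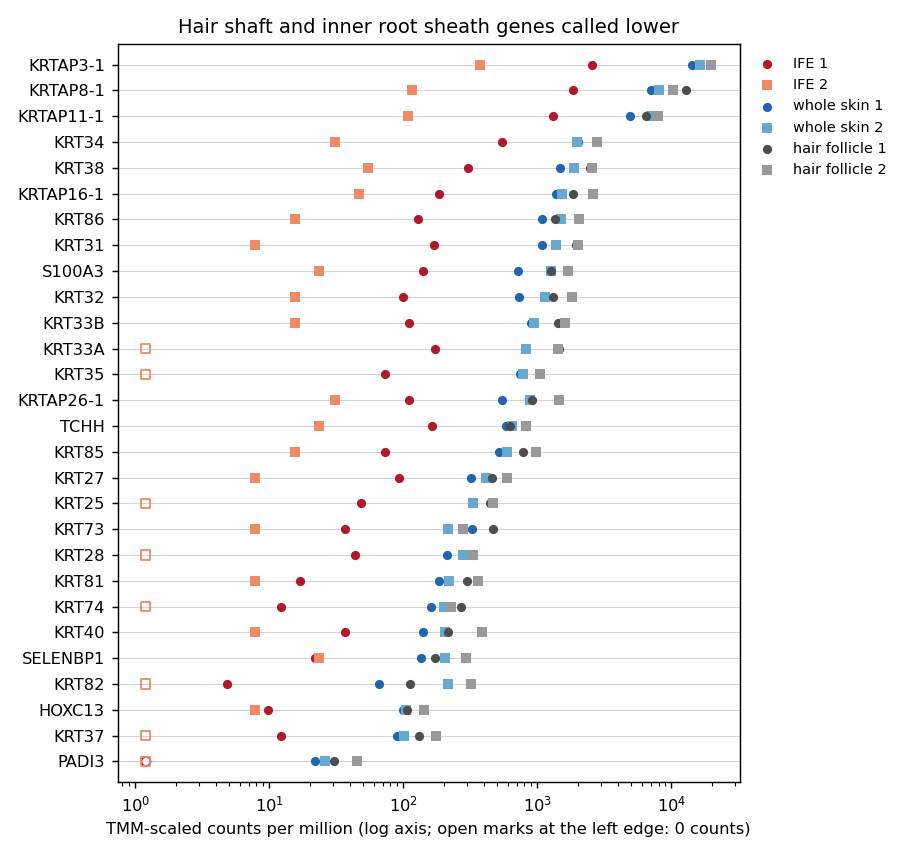
Level of the 28 hair shaft and inner root sheath genes called lower in each tissue library (TMM-scaled CPM, log axis), ordered by level in whole skin. Both IFE marks lie to the left of whole skin for each gene, IFE 2 lies left of IFE 1 for all but SELENBP1 and PADI3, and whole skin lies near the follicle libraries; open marks at the left edge stand for 0 counts.

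Follicle stem cell genes gave 1 call. LHX2, a transcription factor of follicle stem cells, had 24.3 and 0 CPM in IFE and 182 and 133 CPM in whole skin (log2 change -3.20 ± 0.63, SE; edgeR adjusted p = 0.012) and was the single call among 12 tested members of the stem cell and outer sheath list. Its call was lost without IFE replicate 2 (-2.70) or whole skin replicate 1 (-2.95). KRT15, a keratin of bulge and basal cells, had 985 and 2150 CPM in IFE and 2303 and 1356 CPM in whole skin, so its groups overlapped. BAMBI, a decoy receptor of the BMP and TGF-beta pathways, was the single call among 20 Wnt, BMP and Hedgehog genes, with 5 counts in IFE and 132 in whole skin (-2.94 ± 0.61, SE; edgeR adjusted p = 0.016). Its call was lost without IFE replicate 2 (-2.49) or whole skin replicate 2 (-2.73).

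Among the 138 genes called lower, 47 had provisional locus names, and 30 of these were found in the RefSeq table. A gene named as a hair keratin or keratin-associated protein lay within 10 protein-coding genes, a window chosen after the values were seen, on either side of 17 of the 30 (56.7%), against 4 of the 333 other tested provisional loci found there (1.2%). These neighbours included KRTAP3-1, KRT39 and KRT40 in one run of genes, KRT31 to KRT34 in another, and KRTAP24-1 to KRTAP27-1 in another. Several of these loci carry nearly the same counts, and 2 of the 47 shared all 4 counts, so their separate values are uncertain where near-identical copies share reads. Neighbourhood is a description of gene order and does not name the loci.

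Fat genes fell next to hair genes. PLIN1, the perilipin of adipocyte lipid droplets, had the smallest p of all named genes: 21.9 and 7.79 CPM in IFE and 346 and 241 CPM in whole skin, a log2 change of -4.05 ± 0.53 (SE; edgeR adjusted p = 0.00056). PLIN4, another perilipin, had 0 counts in both IFE libraries and 90 and 27 counts in whole skin, so it was at least 10.1-fold lower in IFE (edgeR adjusted p = 0.016). CIDEC, which fuses lipid droplets, had 4 counts in IFE and 268 in whole skin, and ADIPOQ, the hormone adiponectin, had 36.5 and 0 CPM in IFE against 247 and 197 CPM in whole skin. Their log2 changes were -4.19 ± 0.64 and -3.15 ± 0.63 (SE; edgeR adjusted p = 0.0013 and 0.011). These 4 genes left little signal in IFE, and in IFE replicate 2 a single count of PLIN1 was all that remained of them. Follicle tissue held them too: PLIN1 at 192 and 258 CPM, PLIN4 at 35.7 and 50.7, CIDEC at 64.8 and 132 and ADIPOQ at 148 and 237.

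CIDEA and CD36, the fatty acid transporter, were called too, so that 6 of 14 tested adipocyte genes were lower, with a median log2 change of -3.15, or -2.93 with members at 0 set at their bound. The median was -4.67 without IFE replicate 1, or -1.50 with the 6 members at 0 in IFE replicate 2 at their bound. The count was 3 without IFE replicate 1, 2 without IFE replicate 2, 2 without whole skin replicate 1 and 3 without whole skin replicate 2; PLIN1 and CIDEC were called in all 15 alternatives and PLIN4 in 10 of 14, its losses being the 4 sets with 1 library left out. Other members lay above 0: DGAT2, a triglyceride synthase, had 224 and 187 CPM in IFE and 152 and 199 CPM in whole skin, and ACSL1, an acyl-CoA synthetase, had 151 and 70.1 CPM against 52.9 and 54.3 CPM. DESeq2 called ACSL1 higher and 4 members lower, and limma-voom called 0 higher and 7 lower; in edgeR 1 was higher at an unadjusted p under 0.05.

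All 19 tested sebaceous gland genes had a negative log2 change, with a median of -2.50 (-2.17 at the bound), and 5 were called lower. The median was -5.31 without IFE replicate 1, or -1.48 with the 10 members at 0 in IFE replicate 2 at their bound, and -1.78 without whole skin replicate 2. FA2H, the fatty acid 2-hydroxylase, had 41.3 and 23.4 CPM in IFE and 356 and 1219.8 CPM in whole skin (log2 change -4.47 ± 1.08, SE; edgeR adjusted p = 0.035). ELOVL3, an elongase of sebum lipids, had 14.6 and 0 CPM in IFE and 89.1 and 243 CPM in whole skin (-3.93 ± 0.83, SE; edgeR adjusted p = 0.018). SCD, the stearoyl-CoA desaturase, had 440.2 and 140.2 CPM against 1029.7 and 1413 CPM (-2.02 ± 0.47, SE; edgeR adjusted p = 0.027). Whole skin replicate 2 stood above whole skin replicate 1 in each of these genes. In follicle tissue FA2H had 234 and 1037 CPM, ELOVL3 had 66.1 and 213 CPM and SCD had 849 and 1410 CPM. FA2H was not called with limma-voom, with DESeq2 size factors or with library totals. PLIN2 and CIDEA completed the calls, and CIDEA is on the fat list too and is counted in both. Of the 5 calls, 1 was kept without IFE replicate 1, 0 without IFE replicate 2, 3 without whole skin replicate 1 (where THRSP was called too) and 0 without whole skin replicate 2 (edgeR, the tool run on these sets); in the sets with 0, 10 and 8 members were lower at an unadjusted p under 0.05.

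Some of the 20 largest falls encode other proteins of lipid metabolism; they were picked out after their values were seen and stand for no list. APOC1, an apolipoprotein, had 12.2 and 0 CPM in IFE and 140.1 and 399.9 CPM in whole skin (log2 change -4.90 ± 0.75, SE; edgeR adjusted p = 0.00185). CERS4, a ceramide synthase, had 17.02 and 0 CPM against 150.4 and 438 CPM (-4.56 ± 0.76, SE; edgeR adjusted p = 0.0024). G0S2, an inhibitor of adipose triglyceride lipase, had 3 counts in IFE and 191 in whole skin, a whole skin to IFE ratio of 16.8 (95% counting interval 5.66 to 82.1), and CRAT, carnitine acetyltransferase, fell by 4.31 ± 0.88 (SE; edgeR adjusted p = 0.011). APOC1 and CERS4 were called in all 15 alternatives. G0S2 was not called without IFE replicate 1, IFE replicate 2 or whole skin replicate 1, and CRAT was not called without IFE replicate 1, IFE replicate 2 or whole skin replicate 2.

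**Figure D4:**
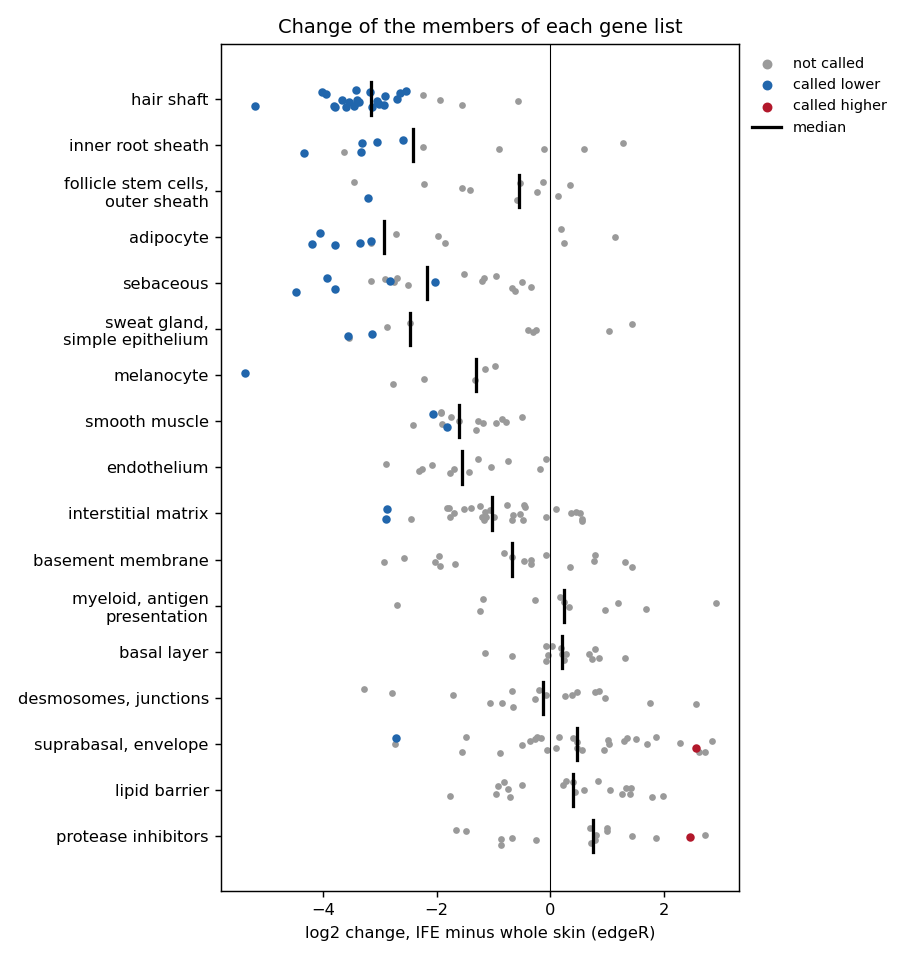
Log2 change from whole skin to IFE (x axis) of each tested member of 17 gene lists, with blue for called lower, red for called higher and black bars for the median with members at 0 counts set at their bound; members with 0 counts in a group are not drawn as points. The hair shaft, fat and sebaceous lists lie to the left, with medians of -3.16, -2.93 and -2.17, and the epidermal lists at the bottom lie around 0 or to the right.

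Glands and pigment were represented by few calls. KRT8, a keratin of simple epithelia such as sweat glands, had 9.73 and 0 CPM in IFE and 74.2 and 98.5 CPM in whole skin (log2 change -3.56 ± 0.65, SE; edgeR adjusted p = 0.0046). LTF, the secreted iron-binding protein lactoferrin, had 12.2 and 0 CPM against 78.8 and 78.4 CPM (-3.13 ± 0.60, SE; edgeR adjusted p = 0.0093). They were the 2 calls among 11 tested genes of sweat gland and simple epithelium, and both stood in all 15 alternatives. Of the 11, 9 had a negative log2 change and 2 a positive one, with 1 higher and 6 lower at an unadjusted p under 0.05. The median was -2.47, and -3.97 without IFE replicate 1, or -0.441 with the 5 members at 0 in IFE replicate 2 at their bound. The list held 0.0961 and 0.0487% of counts in IFE and 0.0718 and 0.0894% in whole skin, so its shares overlapped. In follicle tissue KRT8 had 135 and 139 CPM and LTF had 110 and 118 CPM. Their log2 changes from whole skin to follicle tissue were 0.68 ± 0.40 and 0.54 ± 0.38 (SE). PMEL, the fibril protein of melanosomes, had 1 count in IFE and 160 in whole skin, a ratio of 42.2 (95% counting interval 7.46 to 1680; edgeR adjusted p = 0.027), and its call was lost in each of the 4 sets with 1 library left out. TYRP1, a melanin enzyme, had 89.98 and 0 CPM in IFE and 316 and 452 CPM in whole skin (-2.76, edgeR adjusted p = 0.23). PMEL was the single call among 7 tested melanocyte genes. All 7 had both IFE libraries below both whole skin libraries, as did 32% of all tested genes.

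Basement membrane genes lay on both sides of 0, with 5 above and 14 below. COL4A2, a chain of the collagen IV network, had 0 counts in IFE and 83 and 21 counts in whole skin, so it was at least 8.61-fold lower in IFE (edgeR adjusted p = 0.012). Without IFE replicate 1, IFE replicate 2 or whole skin replicate 1 its adjusted p was 0.34, 0.053 and 0.055. COL4A1, its partner, had 34.05 and 0 CPM in IFE and 85.9 and 62.3 CPM in whole skin (log2 change -1.67, edgeR adjusted p = 0.22). COL4A2 was edgeR's single call among 19 basement membrane genes. COL17A1 and COL4A5, another collagen IV chain, lay above 0, and DESeq2 called COL4A5 higher, as well as 1 member lower.

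Of 30 tested genes of fibroblasts and interstitial matrix, 2 were called lower, and the median log2 change was -1.02. In 20 of them both IFE libraries stood below both whole skin libraries and in 1 above, against 32% and 14.4% of all tested genes. COL6A1, a collagen VI chain, had 17.02 and 15.6 CPM in IFE and 159 and 80.4 CPM in whole skin (-2.87 ± 0.64, SE; edgeR adjusted p = 0.019). DPT, dermatopontin, had 24.3 and 0 CPM against 149.8 and 104.5 CPM (-2.90 ± 0.68, SE; edgeR adjusted p = 0.032). COL1A1, the main collagen of the dermis, had 369.6 and 70.1 CPM against 1654 and 884 CPM and missed the threshold (-2.45 ± 0.62, SE; edgeR adjusted p = 0.052); limma-voom and DESeq2 called it. Without IFE replicate 1 its change was -4.16 and it was called, while COL6A1 and DPT were not (edgeR adjusted p = 0.31 and 0.061). Of these 2 calls, 0 were kept without IFE replicate 2 or whole skin replicate 1, and COL6A1 was kept without whole skin replicate 2 (edgeR). COL6A1 was not called by limma-voom, nor DPT with library totals. The median of the list was -1.88 without IFE replicate 1, or -1.12 with the 6 members at 0 in IFE replicate 2 at their bound. In the sets without IFE replicate 2 and without whole skin replicate 1, with 0 calls on the list, 5 and 4 members were lower at an unadjusted p under 0.05.

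DCN, the proteoglycan decorin of the same fibroblasts, showed no such difference. It had 1622 and 662 CPM in IFE and 1132 and 1003 CPM in whole skin, so the groups overlapped (log2 change 0.11 ± 0.42, SE; edgeR adjusted p = 0.95), and it had 1577 and 1154 CPM in follicle tissue. Without IFE replicate 1 the change was -0.67. LUM and MFAP5, which encode lumican and a microfibril protein, had log2 changes of 0.46 and 0.56 at low levels, with edgeR adjusted p-values of 0.86 and 0.69. The matrix list as a whole held 0.626 and 0.341% of counts in IFE and 1.02 and 0.612% in whole skin, so that IFE replicate 1 stood between the whole skin replicates.

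All 15 tested genes of smooth muscle and pericytes had a negative log2 change, and the median was -1.60. In 14 of them both IFE libraries stood below both whole skin libraries, against 32% of all tested genes. MYH11, smooth muscle myosin, had 163 and 125 CPM in IFE and 678 and 553 CPM in whole skin (-2.07 ± 0.40, SE; edgeR adjusted p = 0.011). ACTG2, the gamma smooth muscle actin, had 134 and 140.2 CPM against 592 and 364 CPM (-1.81 ± 0.46, SE; edgeR adjusted p = 0.048). ACTA2, the alpha smooth muscle actin, had 182 and 62.3 CPM against 591 and 406 CPM (-1.92 ± 0.65, SE; edgeR adjusted p = 0.18). In follicle tissue MYH11 had 411 and 388 CPM, ACTG2 had 504 and 328 CPM and ACTA2 had 554 and 357 CPM. ACTG2 was not called with DESeq2 size factors, with library totals or in a fit of the 4 libraries alone. MYH11 and ACTG2 were the 2 calls. Neither was kept without IFE replicate 1, where MYL9 and TPM1, a myosin light chain and a tropomyosin, were called. The list held 0 calls without IFE replicate 2 or whole skin replicate 1 (edgeR; 6 and 7 members were lower at an unadjusted p under 0.05), and MYH11 alone was kept without whole skin replicate 2. The share of counts on the list was 0.226 and 0.144% in IFE and 0.55 and 0.423% in whole skin.

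Endothelial genes were all below 0 with a median log2 change of -1.56, but edgeR, limma-voom and DESeq2 each called 0 of 12, and 3 were lower at an unadjusted p under 0.05. This median was -6.36 without IFE replicate 1, or 0 with the 7 members at 0 in IFE replicate 2 at their bound, so the size was not measurable in that library. PECAM1, the adhesion molecule of endothelium, had 3 counts in IFE and 44 in whole skin. Antigen presentation genes lay on both sides: CD74, the invariant chain, had 547 and 592 CPM in IFE and 644 and 305 CPM in whole skin, and DLA-DRA, a dog class II chain, had 153 and 85.7 CPM against 53.6 and 56.3 CPM (1.19 ± 0.44, SE; edgeR adjusted p = 0.25). Of 11 tested myeloid genes edgeR, limma-voom and DESeq2 each called 0, with 2 higher and 0 lower at an unadjusted p under 0.05. The summed counts of that list were 0.108 and 0.118% in IFE and 0.0956 and 0.0515% in whole skin.

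**Figure D5:**
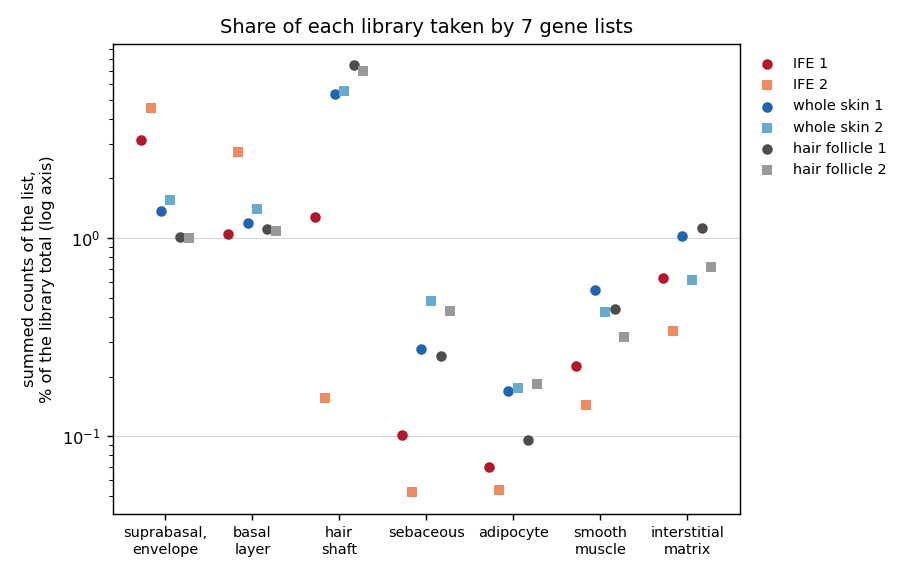
Summed counts of 7 gene lists as a percentage of each library's total (log axis), with IFE in red and orange, whole skin in blue and hair follicle tissue in grey. The suprabasal list is highest in IFE (3.12 and 4.53%), the hair shaft list is lowest there (1.28 and 0.156%), and the basal list of IFE replicate 1 (1.05%) lies below and that of IFE replicate 2 (2.73%) above whole skin (1.19 and 1.4%).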

How the data were processed

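The deposited values are expected counts per gene, that is, counts of which 4.91 to 9.111% of the entries in a tissue library held a fraction; the submitters' processing notes name BWA 0.6.2-r126, an aligner, and CanFam3.1, a dog build. The sources used here do not give the annotation, the counting tool or how molecular barcodes were handled. Counts were rounded to whole numbers, and 4 entries that name no gene were left out. Entries not listed by the differentiation libraries entered those libraries as 0.

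Groups were taken from the labels. edgeR 4.0.16 in R 4.3.3 was fitted to all 23 libraries with 12 group means (11 residual degrees of freedom), after its default filter and TMM scaling, and the script was tested on simulated data. Standard errors are the size of the change divided by the square root of F. Where a group had 0 counts, a fold was bounded against 3 counts over the group's scaled libraries; 2 libraries against 2 cannot give an exact two-sided permutation p below 0.333, so sums over lists were not tested. Alternatives used DESeq2 1.42.0, limma 3.58.1 and 13 other settings.

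The members and all 30 gene lists were chosen with earlier results of these data known. The genes named were taken from the markers SCEL, SERPINB7, PLIN4 and COL4A2, every called rise and the 20 largest called falls, if the groups did not overlap, the higher one reached 20 CPM and the entry was not a provisional locus, up to 3 calls with the smallest p per list and direction (2 genes where none was called), and a set of 23 marker genes. Other list members and the provisional loci were named after their values were seen. Some genes that this rule names are not reported here.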

Additional observations from a re-analysis of the deposited data

Results flagged for a closer look

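Entries that name no gene, which no comparison above used, held 2.09 and 2.158% of the counts in IFE replicates 1 and 2, above the 0.99 and 1.46% in the whole skin libraries and the 1.637 and 1.114% in follicle tissue. The part of these entries in the results was not tested.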

How the results depend on the processing

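All 154 called genes that had a value under an alternative kept their direction in each of the 15 alternatives, and 13 of the 51 named genes that were called kept their call in all of them. Genes called higher numbered 35 with library totals, 51 with no filter, 37 with a filter from the 4 libraries, 33 from the 17 tissue and expansion libraries, 102 from the 6 tissue libraries, 41 from the 4 libraries and 56 with DESeq2. Genes called lower numbered 250 with no filter and 209 from the 6 tissue libraries. Calls in either direction numbered 301 with no filter, 232 from the 17 libraries and 311 from the 6. With 1 library left out, 0 to 14 genes were called higher, 62 to 103 lower and 64 to 109 in either direction. The median log2 change of all genes was 0.0308 with library totals and ran from -0.429 to -0.146 with 1 library left out. The cause of these shifts was not tested.

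Some uncalled genes turned direction. The log2 change of KRT5 was -0.008461 from the 17 libraries and -0.1712 with limma-voom, and ran from -0.9928 to 0.6673 with 1 library left out. With 1 left out, KRT14 ran from -0.4331 to 0.7371, FLG from -0.1554 to 0.435, DCN from -0.6675 to 0.6068 and CD74 from -0.1803 to 0.9037. The log2 change of KRT15 was 0.1165 with library totals and ran from -0.8916 to 0.2509. The log2 change of TP63 was 0.06957 with DESeq2 size factors, 0.1715 with library totals, 0.02994 with the filter from the 4 libraries, 0.09725 from the 6 and 0.1094 from the 4 libraries and 0.06908 with DESeq2, and ran from -0.8716 to 0.2774.

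IFE and whole skin replicates share numbers in the labels, which do not say what a number marks; the deviations of same-numbered replicates correlated at 0.0529 over genes. A replicate block gave 14 higher and 135 lower calls, ended the calls of SERPINB7, FA2H and ACTG2, called COL1A1, and turned the log2 change of KRT5 to -0.09856 and the log2 change of DCN to -0.007654. Calls per gene list with 1 library left out were counted after seeing the data and stand beside the hair, root sheath, fat, sebaceous, matrix and muscle genes. Depth limits the genes with few counts in IFE: 462 tested genes had 0 counts in both IFE libraries, and of those called lower 6 had 0 and 17 had 1 to 3.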

Other observations

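Genes of the cell cycle, ribosome and stress response gave few or no calls. Of 30 tested genes of S phase and mitosis, edgeR, limma-voom and DESeq2 each called 0 and 0 passed an unadjusted p under 0.05; 24 had a negative log2 change and the median was -0.63. AURKB, a mitotic kinase, had 9.73 and 7.79 CPM in IFE and 27.8 and 32.2 CPM in whole skin (5 and 59 counts; log2 change -1.67, edgeR adjusted p = 0.55). PCNA, the replication clamp, had 60.8 and 46.7 CPM in IFE against 65.2 and 84.4 CPM. Cytosolic ribosomal proteins took 11.8 and 9.97% of the counts in IFE and 7.5 and 8.15% in whole skin, while the median log2 change of 76 tested genes was 0.14, and -0.12 without IFE replicate 1; edgeR and limma-voom called 0, DESeq2 called 1 higher, and 2 were higher at an unadjusted p under 0.05. The 13 mitochondrially encoded genes had a median of -0.40 with 0 calls by any of the 3 tools and 0 at an unadjusted p under 0.05. KLF6, an immediate early transcription factor, had 803 and 795 CPM in IFE and 465 and 261 CPM in whole skin (log2 change 1.13, edgeR adjusted p = 0.35), and FOS had 60.8 and 156 CPM against 27.8 and 20.1 CPM (2.01, edgeR adjusted p = 0.39). Of 17 tested immediate early and heat shock genes each of the 3 tools called 0, with 1 higher at an unadjusted p under 0.05.

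KRT6A, a keratin of wounds and of the follicle's companion layer, had 815 and 997 CPM in IFE, 2233 and 2313 CPM in whole skin and 2156 and 2334 CPM in follicle tissue (log2 change -1.33, edgeR adjusted p = 0.22). Of 16 tested wound and alarmin genes the 3 tools called 0, with 3 lower at an unadjusted p under 0.05. SCUBE2, a secreted partner of Hedgehog ligands, had 29.2 and 70.1 CPM in IFE against 10.97 and 6.03 CPM in whole skin (2.28, edgeR adjusted p = 0.13). Of 8 interferon response genes 1 was higher at an unadjusted p under 0.05 and of 10 Notch genes 0 were, with 0 calls by the 3 tools in both lists. Of 6 genes of Schwann cells and nerve and 3 of skeletal muscle the 3 tools called 0, with 1 lower in each and 1 higher in skeletal muscle at an unadjusted p under 0.05. CHGA was the 1 Merkel cell gene tested, with 0 counts in IFE and 16 in whole skin (edgeR adjusted p = 0.36). No red blood cell gene was tested, and AHSP had 0 counts in IFE and 2 in whole skin.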
